A study of Mus musculus with 8 samples.

Results

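The 8 genes described here encode carriers of the inner mitochondrial membrane, of the SLC25 family. They were the rows of the deposited count table whose Ensembl identifier maps to Slc25a3, Slc25a4, Slc25a5, Slc25a11, Slc25a12, Slc25a13, Ucp2 or Ucp3 in the mouse GRCm38 annotation, 8 of 51826 genes in the table. All 8 passed the filter on low counts, which left 16623 genes for testing. RNA labelled as coming from heart cardiomyocytes of C57BL/6 mice was sequenced in 8 libraries, from LncSync-/- mice (KO) and wild-type mice (WT), each as adults and as embryos at e13.5. The 4 groups, KO adult, WT adult, KO e13.5 and WT e13.5, had 2 libraries each. LncSync is a long non-coding RNA, and the comparisons asked how its loss and the step from embryo to adult relate to transcript levels. The labels give neither the age of the adults in days nor the sex, nor how the cells were isolated, nor what the null allele removes. LncSync is not listed under that name in the table, so its loss was not checked here. Whether replicates came from separate animals or litters is not stated in the labels, so a p-value here reflects only how far these libraries spread, which may be technical.

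SLC25 carriers move metabolites through the otherwise tight inner membrane. ADP/ATP carriers (Slc25a4, also called ANT1, the heart and muscle form, and Slc25a5, ANT2, the form of many proliferating tissues) exchange cytosolic ADP for ATP made in the matrix, and the phosphate carrier Slc25a3 brings in the phosphate for that ATP. The oxoglutarate/malate carrier Slc25a11 and the aspartate/glutamate carriers Slc25a12 (aralar) and Slc25a13 (citrin) form the membrane part of the malate-aspartate shuttle, which passes reducing equivalents of cytosolic NADH to the matrix. Ucp2 and Ucp3 are relatives of the brown fat uncoupling protein Ucp1. Ucp3 is known from skeletal muscle, heart and brown fat, and Ucp2 from many tissues, macrophages among them.

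The sequence upstream of the gene start is shown for 3 members, the ADP/ATP carrier pair and Ucp3. The levels of the pair ran in opposite directions between the ages, though neither difference passed the test threshold, and Ucp3 was near 0 at e13.5. Each is the 250 bases before the RefSeq gene start (GRCm38.p6), read 5′ to 3′ on the gene's own strand, with matches to the motifs searched in capitals.
Slc25a4, chr8:46211063-46211312, minus strand: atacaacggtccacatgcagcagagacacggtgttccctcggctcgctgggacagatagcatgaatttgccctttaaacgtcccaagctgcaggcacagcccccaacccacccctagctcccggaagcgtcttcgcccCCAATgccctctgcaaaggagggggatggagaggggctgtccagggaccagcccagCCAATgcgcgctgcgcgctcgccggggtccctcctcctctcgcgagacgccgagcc
Slc25a5, chrX:36795347-36795596, plus strand: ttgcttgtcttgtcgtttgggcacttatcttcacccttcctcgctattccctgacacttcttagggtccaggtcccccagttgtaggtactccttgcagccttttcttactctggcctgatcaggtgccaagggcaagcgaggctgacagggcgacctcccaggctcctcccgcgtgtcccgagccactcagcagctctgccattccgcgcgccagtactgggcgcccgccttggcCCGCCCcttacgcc
Ucp3, chr7:100472741-100472990, plus strand: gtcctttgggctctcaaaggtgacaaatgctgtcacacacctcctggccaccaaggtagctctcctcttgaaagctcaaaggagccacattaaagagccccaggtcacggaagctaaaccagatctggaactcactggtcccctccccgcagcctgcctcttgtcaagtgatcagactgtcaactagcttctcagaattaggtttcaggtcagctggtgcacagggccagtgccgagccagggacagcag

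The capitals mark CCAAT, whose matches began 112 and 56 bases before the Slc25a4 start, and CCGCCC, the reverse complement of the GC box GGGCGG, 14 bases before the Slc25a5 start. These starts are those of RefSeq. In GENCODE the Slc25a4 gene starts at chr8:46211284, so most of its window, with both CCAAT matches, lies inside the gene there. In these 250 bases 5 motifs were searched on both strands, and no overlap between different motifs was removed. CCAAT was found upstream of 3 of the 8 members (Slc25a4, Slc25a11 and Slc25a13), against 33.85% of 32851 promoters in the RefSeq table. GGGCGG was found upstream of 4 of the 8 (Slc25a3, Slc25a5, Slc25a11 and Ucp2), against 32.74% of all promoters. TATAAA, the TATA box, was found upstream of 0 of the 8, against 12.37%. The element TNAAGGTCA of the estrogen-related receptors was found upstream of 0 of the 8, against 1.14%. The NRF1 site, GCGC and TGCGC with 1 base between them, was found upstream of Slc25a3 alone, against 3.74% of all promoters. None of the 5 was found in the Ucp3 window. These matches describe the letters in the windows only.

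Per library, total counts ran from 16495084 to 20395600, and the 8 members together took 0.346% to 0.664% of them. Levels are given as CPM, a gene's share of the counts of its library on a common total, after TMM scaling, and as CPM per kilobase of the principal transcript where genes are compared with each other. The summed level of 10 cardiomyocyte markers was 62601 and 80098 CPM in KO adults, 82179 and 81061 CPM in WT adults, 39372 and 15110 CPM at KO e13.5, and 35331 and 25476 CPM at WT e13.5. At e13.5 all 10 had at least 5 CPM in each library, and in adults 9 had, the other being Myl7, the atrial myosin light chain, at 0.0689 to 1.34 CPM. The e13.5 libraries also held markers of other cells. The 10 fibroblast markers summed to 457 to 1166 CPM in adults, against 550 and 3809 CPM at KO e13.5 and 998 and 4580 CPM at WT e13.5. The 10 erythroid markers summed to at most 179.6 CPM in adults, where Slc4a1, the red cell anion exchanger, was at 0 in all 4 libraries, and to 20211 to 160302 CPM at e13.5. Cycling-cell markers summed to 52.2 to 86.7 CPM in adults and to 1207 to 1917 CPM at e13.5. Mitochondrially encoded transcripts took 22.6% to 28.8% of the counts in adults and 3.21% to 4.36% at e13.5. Ribosomal RNA genes took 0.0666% to 0.127% in adults and 4.20% to 10.5% at e13.5. In bulk RNA, fewer cells of a type and less RNA per cell cannot be told apart. In both genotypes the e13.5 library numbered 2 stood apart from the one numbered 1, with a lower summed level of cardiomyocyte markers and a higher one of fibroblast markers. Its erythroid sum was lower too, at 22851 against 160302 CPM in KO and 20211 against 43932 CPM in WT, where Slc4a1 alone was higher. Its TMM factor was higher, at 1.40 against 0.971 in KO and 1.44 against 1.06 in WT. Single markers did not all follow the sums: Ttn and Ryr2 in KO, and Ttn, Ryr2, Myh6 and Myh7 in WT, were higher in the library numbered 2, and 1 of 10 fibroblast markers in KO and 3 of 10 in WT were lower. Each age result is also given without the e13.5 libraries of either number. The part of these other cells in the age differences was not tested.

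**Figure D1:**
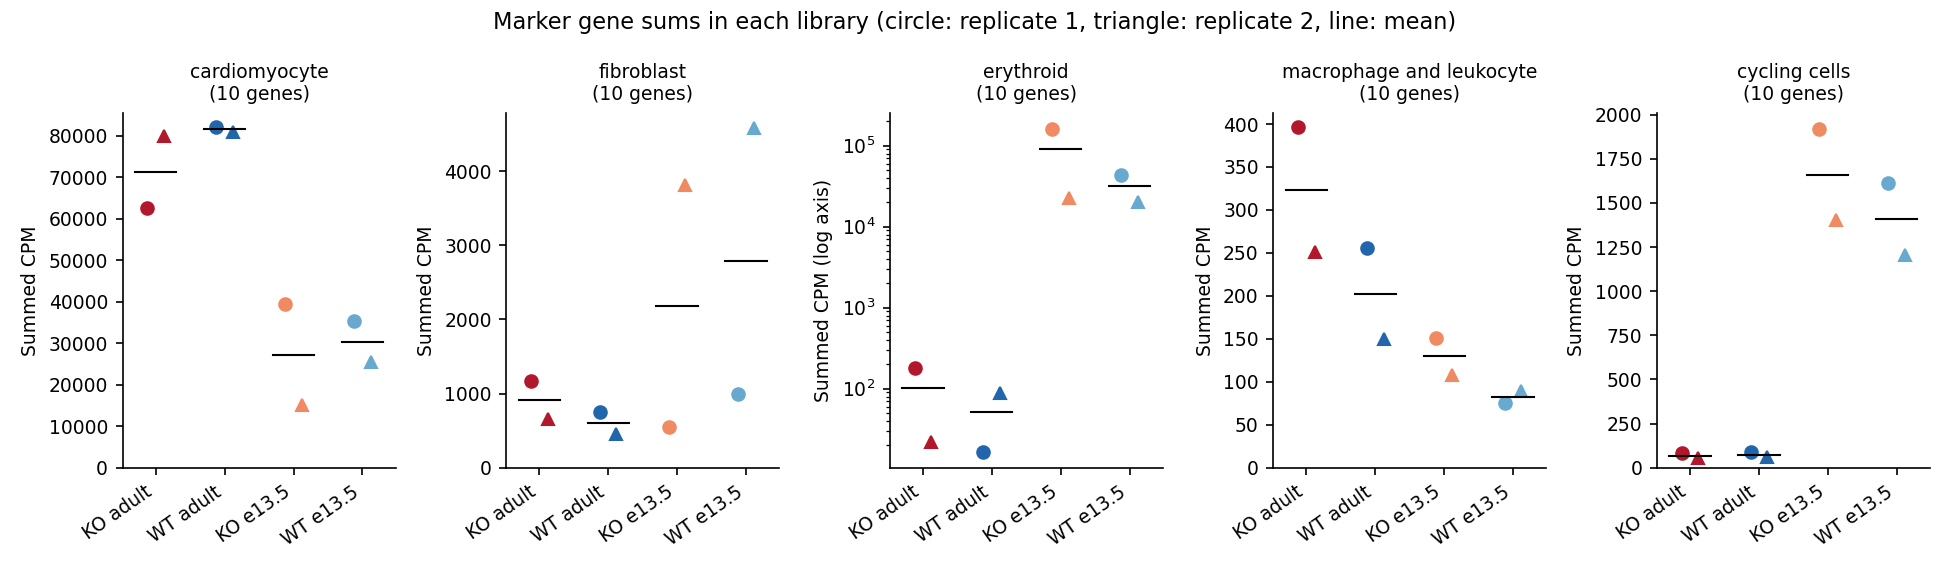
Summed CPM of 5 marker lists of 10 genes each in every library, by group (KO adult, WT adult, KO e13.5, WT e13.5), with a log axis for the erythroid list alone. At e13.5 the triangles (replicate 2) lie below the circles for cardiomyocyte genes, at 15110 CPM in KO and 25476 CPM in WT, and above them for fibroblast genes, at 3809 CPM in KO and 4580 CPM in WT.

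In the adult against e13.5 comparison, 2 of the 8 carriers were higher in KO adults (Slc25a13 and Ucp3) and none was lower. In WT, 2 were higher in adults (Slc25a13 and Ucp3) and 1 was lower (Ucp2). Over all genes tested, 41.4% were called in KO (20.5% higher, 20.9% lower) and 38.9% in WT (17.8% higher, 21.1% lower) by edgeR's quasi-likelihood test at an adjusted p under 0.05, so the share of members called, 2 of 8 in KO and 3 of 8 in WT, was no larger than that of genes at large. The median log2 difference of the 8 members was 1.17 in KO and 1.24 in WT, beside -0.15 in KO and -0.26 in WT over all genes tested. In KO 7 of the 8 members, and in WT all 8, had adult libraries that did not overlap the e13.5 libraries, as had 72.7% of all genes in KO and 75.9% in WT.

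**Figure D2:**
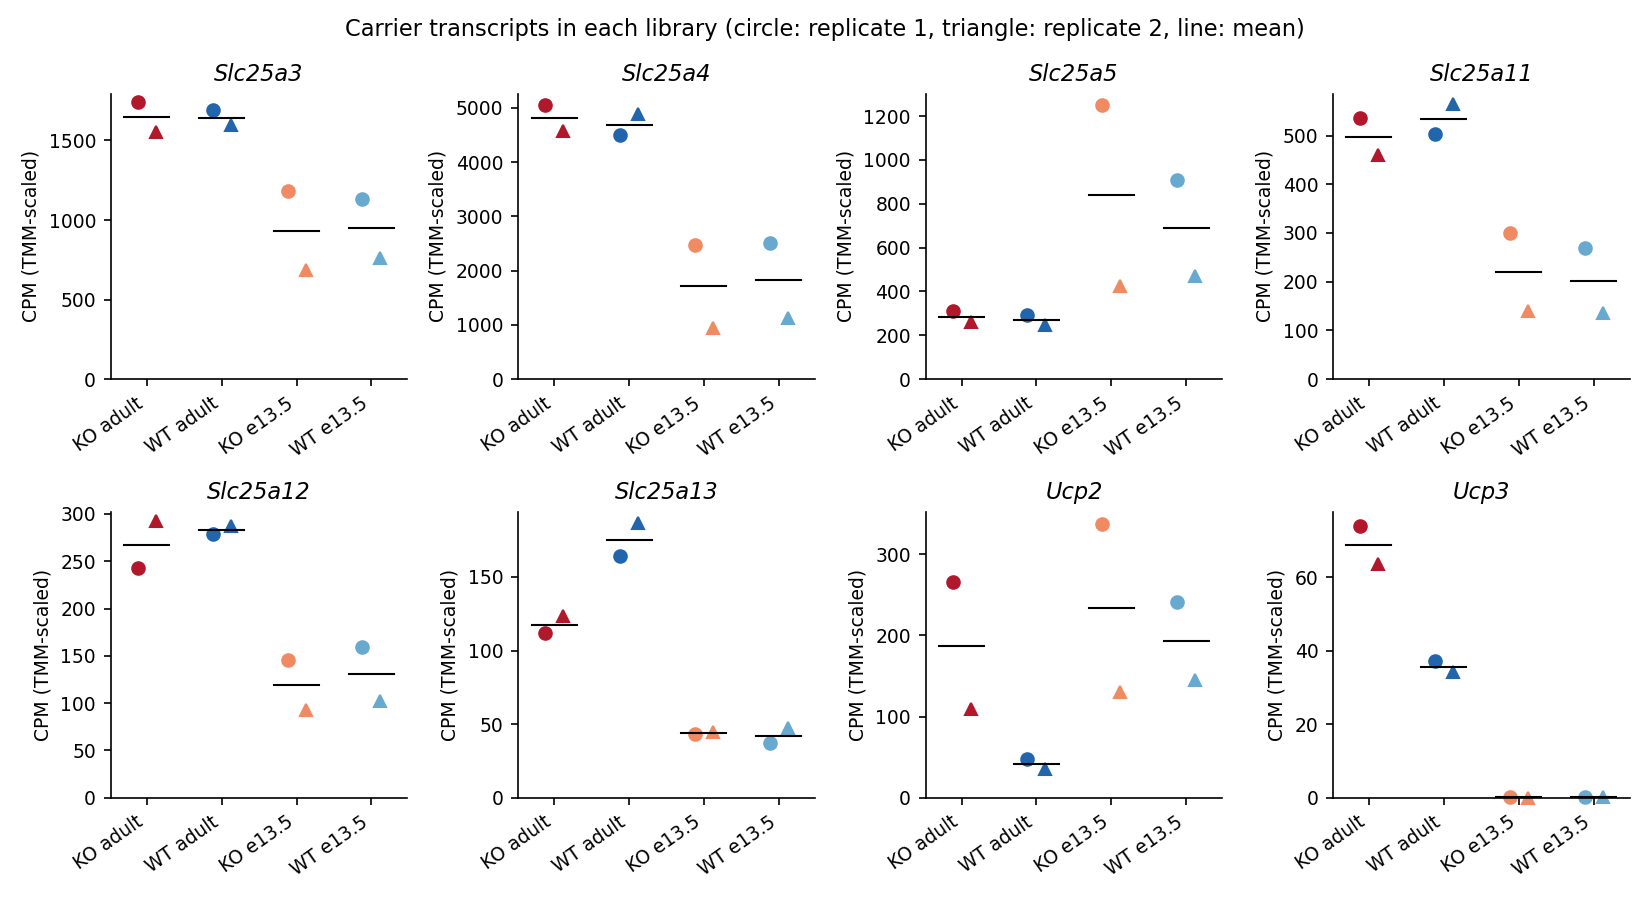
CPM of each of the 8 carriers in every library, by group (KO adult, WT adult, KO e13.5, WT e13.5), each panel on its own linear axis starting at 0, with circles for replicate 1, triangles for replicate 2 and a line at the group mean. Slc25a4 lies between 4494 and 5061 CPM in adults and between 949 and 2509 CPM at e13.5, Slc25a5 runs the opposite way, and Ucp3 is near 0 at e13.5.

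Slc25a4 had the highest mean level per kilobase of the 8 in every group. It had 5061 and 4572 CPM in KO adults, 4494 and 4887 CPM in WT adults, 2483 and 949 CPM at KO e13.5, and 2509 and 1134 CPM at WT e13.5. Every adult library lay above every e13.5 library, and within each e13.5 group the library numbered 1 was above the library numbered 2, by 2.62-fold in KO and 2.21-fold in WT. The log2 difference of adult against e13.5 was 1.49 ± 0.62 (SE) in KO and 1.36 ± 0.62 in WT, which missed the threshold (adjusted p = 0.0783 and 0.105, edgeR quasi-likelihood test with Benjamini-Hochberg adjustment). Without the 2 e13.5 libraries numbered 2 it was 0.85 ± 0.29 in KO and 0.87 ± 0.30 in WT (adjusted p = 0.0440 and 0.0406). Without the 2 numbered 1 it was 2.38 ± 0.32 and 2.19 ± 0.31 (adjusted p = 0.00110 and 0.00172), so both subsets passed and differed in size.

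Slc25a5 ran the other way. It had 309.9 and 260.03 CPM in KO adults, 292 and 248 CPM in WT adults, 1253 and 427 CPM at KO e13.5, and 910.2 and 469 CPM at WT e13.5. All adult libraries lay below all e13.5 libraries. The log2 difference of adult against e13.5 was -1.56 ± 0.59 in KO and -1.35 ± 0.59 in WT (adjusted p = 0.0573 and 0.0923, edgeR), which missed the threshold. Without the e13.5 libraries numbered 2 it was -2.25 ± 0.28 and -1.79 ± 0.28 (adjusted p = 7.87e-04 and 0.00190), and without those numbered 1 it was -0.55 ± 0.29 and -0.66 ± 0.29 (adjusted p = 0.157 and 0.111). In KO it also passed with DESeq2 (adjusted p = 0.0129), with either other filter and with upper quartile scaling (adjusted p = 0.0282 to 0.0433). Slc25a5 lies on the X chromosome (chrX:36795651-36798807), and the level of Xist, the RNA of the inactive X, differed between the ages too: it had 0 and 0.464 CPM in KO adults, 0 and 0.207 CPM in WT adults, 28.0 and 35.4 CPM at KO e13.5, and 12.8 and 81.8 CPM at WT e13.5. The part of the sex of the animals in the Slc25a5 result was not tested. A pair of near-identical copies of Slc25a5, the pseudogenes Gm5529 and Gm5560, together took at most 7 counts in a library, 0.0649% of its Slc25a5 counts.

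The ratio of Slc25a4 to Slc25a5 within a library needs no scaling between libraries and differed less between the e13.5 replicates than either level. Per kilobase it was 10.5 and 11.3 in KO adults, 9.91 and 12.7 in WT adults, 1.28 and 1.43 at KO e13.5, and 1.78 and 1.56 at WT e13.5. The lowest adult ratio, 9.91, was well above the highest e13.5 ratio, 1.78, and the 2 e13.5 libraries of a genotype, whose Slc25a4 levels differed by more than 2.2-fold, had similar ratios. Over both genotypes the adult ratio was 7.38-fold higher than that at e13.5, a log2 difference of 2.88, with a mean log2 ratio of 3.47 ± 0.153 in adults and 0.58 ± 0.200 at e13.5 (SD, n = 4 each). A two-sided exact permutation test over all 70 arrangements of the age labels gave p = 0.0286, the smallest it can give, and an adjusted p of 0.0857 over the 6 ratio tests. Within a genotype the ratio was 8.08-fold higher in KO adults than at KO e13.5 and 6.75-fold higher in WT adults than at WT e13.5.

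As a share of the pair per kilobase, Slc25a4 made up 91.6 ± 0.40% in KO adults, 91.8 ± 1.31% in WT adults, 57.5 ± 1.97% at KO e13.5 and 62.4 ± 2.19% at WT e13.5 (SD, n = 2 each). The sum of both carriers was 2879 and 2585 CPM per kilobase in KO adults, 2570.1 and 2739 in WT adults, 2299.9 and 837 at KO e13.5, and 2037 and 967 at WT e13.5. The e13.5 libraries numbered 1 thus came close to the adults in the sum while their split between the carriers was close to that of the other e13.5 libraries. By genotype, the ratio averaged over both ages was 0.890 times that of WT in KO, a log2 difference of -0.17 (two-sided exact permutation within age, 36 arrangements, p = 0.222, adjusted p = 0.333). At e13.5 both KO ratios lay below both WT ratios, 0.813-fold, whereas in adults the genotypes overlapped, at 0.974-fold, and 2 libraries against 2 cannot give an exact p below 0.333.

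**Figure D3:**
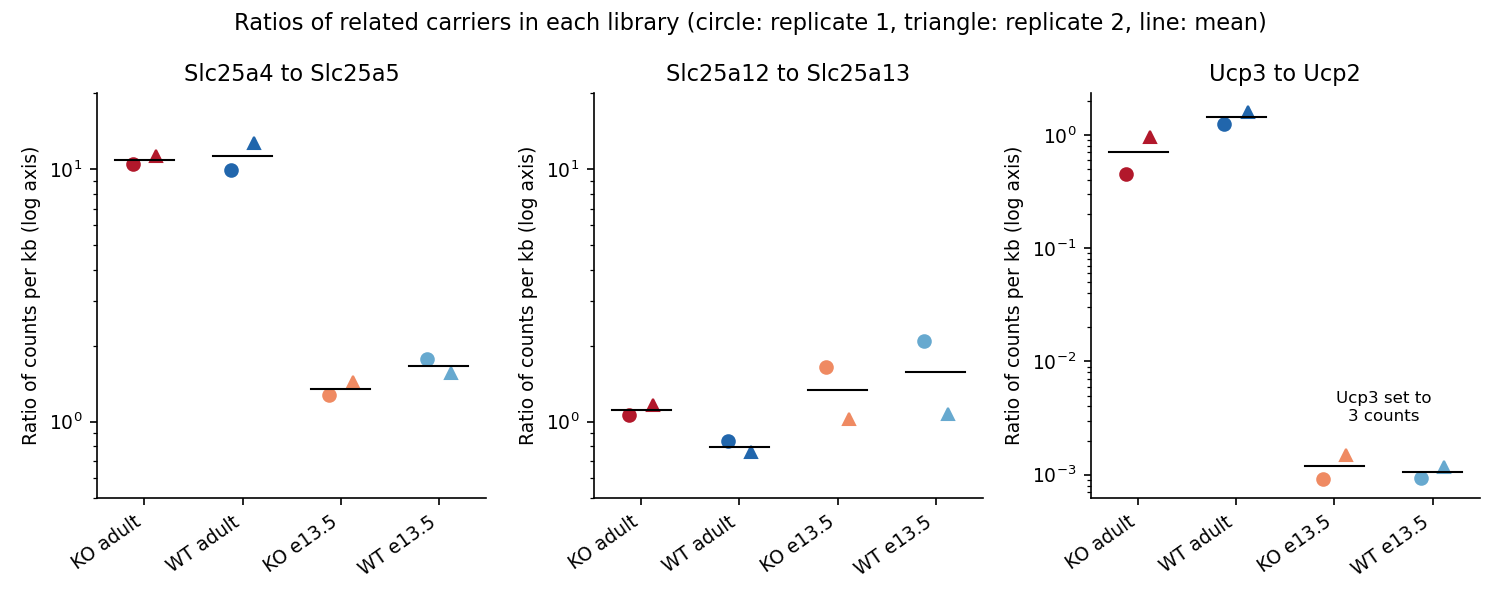
Ratio of counts per kilobase of Slc25a4 to Slc25a5, Slc25a12 to Slc25a13 and Ucp3 to Ucp2 in every library on log axes, by group (KO adult, WT adult, KO e13.5, WT e13.5), with circles for replicate 1, triangles for replicate 2 and a line at the mean. The Slc25a4 to Slc25a5 ratio lies between 9.91 and 12.7 in adults and between 1.28 and 1.78 at e13.5, and for Ucp3 the e13.5 points use the floor of 3 counts.

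The phosphate carrier Slc25a3 (chr10:91116574-91124059) was the second in level per kilobase in adults, at 1022 ± 82.5 in KO and 1019.7 ± 39.3 in WT (SD, n = 2 each). It had 1742 and 1554 CPM in KO adults, 1689 and 1599 CPM in WT adults, 1180.2 and 683 CPM at KO e13.5, and 1134 and 762 CPM at WT e13.5. The adult libraries lay above the e13.5 libraries, by a smaller step than for Slc25a4. Its log2 difference of adult against e13.5 was 0.82 ± 0.48 in KO and 0.79 ± 0.48 in WT and missed the threshold (adjusted p = 0.191 and 0.214, edgeR). Without the e13.5 libraries numbered 1 it passed, at 1.30 ± 0.30 and 1.25 ± 0.30 (adjusted p = 0.0118 and 0.0154), and without those numbered 2 it did not, at 0.37 ± 0.29 and 0.50 ± 0.29 (adjusted p = 0.302 and 0.179).

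The order of the members per kilobase differed between the ages. In adults of both genotypes Slc25a4, Slc25a3, Slc25a11 and Slc25a5 followed each other without overlap between neighbours, at 2502, 1022, 291 and 229.8 CPM per kilobase in KO and at 2437, 1019.7, 312 and 218 in WT. At e13.5 Slc25a4, Slc25a5 and Slc25a3 overlapped, at 891, 677 and 578 CPM per kilobase in KO and at 946, 556 and 588 in WT, with Slc25a11 below them at 128 in KO and 118 in WT. The other members were lower. In KO adults Ucp2, Slc25a12 and Slc25a13 overlapped at 46.9, 42.1 and 37.7 CPM per kilobase, above Ucp3 at 28.1. In WT adults Slc25a13, Slc25a12, Ucp3 and Ucp2 followed each other without overlap at 56.2, 44.6, 14.5 and 10.4.

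Among the carriers of the malate-aspartate shuttle, Slc25a13 (citrin, chr6:6041218-6217173) was higher in adults in both genotypes. It had 112 and 123 CPM in KO adults, 164 and 187 CPM in WT adults, 43.6 and 44.4 CPM at KO e13.5, and 37.3 and 47.1 CPM at WT e13.5. The e13.5 libraries, those numbered 2 included, were close to each other, and all adult libraries were above them. The difference was 2.67-fold in KO (log2 1.42 ± 0.39, adjusted p = 0.0171) and 4.15-fold in WT (log2 2.05 ± 0.40, adjusted p = 0.00374, edgeR). Both calls held without the e13.5 libraries numbered 2 (log2 1.33 ± 0.31 in KO and 2.20 ± 0.33 in WT, adjusted p = 0.0101 and 0.00152) and without those numbered 1 (1.44 ± 0.32 and 2.04 ± 0.33, adjusted p = 0.0101 and 0.00310). The difference between the KO and WT changes was not called (interaction log2 -0.63 ± 0.54, adjusted p = 1, edgeR). In KO the call was lost when KO adult replicate 1 or 2, WT adult replicate 1 or 2, or KO e13.5 replicate 1 or 2 was left out (adjusted p = 0.0542 to 0.0776, edgeR) and when the 4 KO libraries were fitted alone (adjusted p = 0.0552), and in WT it held under every alternative run (adjusted p up to 0.0435, edgeR).

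Slc25a12 (aralar, chr2:71271063-71367749), the form usual in heart and brain, had 243 and 292 CPM in KO adults, 279 and 288 CPM in WT adults, 146 and 92.4 CPM at KO e13.5, and 159 and 102 CPM at WT e13.5. The adult and e13.5 libraries did not overlap, but the log2 difference of 1.17 ± 0.44 in KO and 1.12 ± 0.44 in WT missed the threshold (adjusted p = 0.0581 and 0.0699, edgeR). Without the e13.5 libraries numbered 1 it passed, at 1.57 ± 0.33 and 1.61 ± 0.33 (adjusted p = 0.00784 and 0.00817), and without those numbered 2 it did not, at 0.77 ± 0.31 and 0.80 ± 0.31 (adjusted p = 0.0708 and 0.0632).

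Slc25a11 (the oxoglutarate carrier, chr11:70644196-70647479) had 535 and 459.6 CPM in KO adults, 503 and 565 CPM in WT adults, 299 and 139 CPM at KO e13.5, and 268 and 136 CPM at WT e13.5. Every adult library lay above every e13.5 library. Its log2 difference of 1.18 ± 0.52 in KO and 1.40 ± 0.53 in WT missed the threshold (adjusted p = 0.0938 and 0.0591, edgeR), and in WT it passed with no filter (adjusted p = 0.0443) and with DESeq2 (adjusted p = 0.0375). Without the e13.5 libraries numbered 1 it was 1.87 ± 0.32 in KO and 2.11 ± 0.33 in WT (adjusted p = 0.00342 and 0.00249), and without those numbered 2 it was 0.62 ± 0.30 and 0.96 ± 0.30 (adjusted p = 0.115 and 0.0323). Slc25a11 shares 245 bases with Rnf167 on the opposite strand, which had 508 to 1208 counts a library, up to 34.4% of the Slc25a11 counts, and whether the counting used strand is not given in the sources used here.

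Of the aspartate/glutamate carriers, Slc25a12 did not outweigh Slc25a13 per kilobase in every group. The ratio of Slc25a12 to Slc25a13 was 1.07 and 1.16 in KO adults, 0.835 and 0.757 in WT adults, 1.65 and 1.02 at KO e13.5, and 2.09 and 1.07 at WT e13.5. At e13.5 the library numbered 1 had the higher ratio in both genotypes, and the adults overlapped the e13.5 libraries. The log2 difference of adult against e13.5 was -0.57 (two-sided exact permutation test, p = 0.143, adjusted p = 0.286), and that of KO against WT was 0.14 (p = 0.611 before and after adjustment, exact permutation within age). In adults both KO ratios lay above both WT ratios, by 1.40-fold. The sum of both carriers was 74.1 and 85.5 CPM per kilobase in KO adults, 96.4 and 105 in WT adults, 36.9 and 28.8 at KO e13.5, and 37.0 and 31.2 at WT e13.5, so all adult libraries were above the e13.5 libraries.

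Ucp3 (chr7:100472990-100486432) was near absent at e13.5 and present in adults. It had 1124 and 959 counts in KO adults, 637 and 495 counts in WT adults, 2 and 0 counts at KO e13.5, and 2 and 2 counts at WT e13.5. In CPM that was 74.1 and 63.6 in KO adults and 37.1 and 34.1 in WT adults, while every e13.5 library was under the floor that 3 counts set, 0.103 to 0.188 CPM. The adult to e13.5 ratio of summed counts, scaled by library size, was 1420 in KO (95% interval 393 to 11736, exact, counting error only) and 453 in WT (interval 176 to 1665). It was called higher in adults in both genotypes (adjusted p = 1.64e-04 in KO and 2.23e-04 in WT, edgeR), and in each alternative tried, without the e13.5 libraries of either number included. The antisense gene Gm10603 shares 1857 bases with Ucp3 and had at most 20 counts in a library. Of 8 adipocyte markers, Adipoq, Lep, Retn and Ucp1 were at 0 in all adult libraries, and Plin1, Cidec and Cfd had at most 0.64 CPM. The eighth, Fabp4, a fatty acid binding protein that endothelial cells also make, had 625 and 320.2 CPM in KO adults, 456 and 295 CPM in WT adults, 121 and 86.2 CPM at KO e13.5, and 85.7 and 58.5 CPM at WT e13.5. It was called higher in adults, by log2 2.19 in KO and 2.38 in WT (edgeR), and its part in the Ucp3 result was not tested. Of 8 skeletal muscle markers Myh4 was at 0 in all 8 libraries. In adults 1 skeletal muscle marker passed 5 CPM, Acta1, an actin that heart muscle also expresses, with 708 and 577 CPM in KO adults and 318 and 149.9 CPM in WT adults.

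Ucp2 lies 6905 bases downstream of Ucp3 on the same strand (chr7:100493337-100502020), and the coding sequences of the pair are 73.96% identical. It had 265 and 109 CPM in KO adults, 48.2 and 34.8 CPM in WT adults, 337 and 130.3 CPM at KO e13.5, and 241 and 145 CPM at WT e13.5. WT adults were the lowest group, and KO adults overlapped both e13.5 groups. In WT it was 4.64-fold lower in adults than at e13.5 (log2 -2.22 ± 0.62, adjusted p = 0.0203, edgeR), and in KO the difference was not called (log2 -0.32 ± 0.60, adjusted p = 0.683). The WT call was lost without WT e13.5 replicate 1 (log2 -1.67, adjusted p = 0.0865), WT adult replicate 1 (log2 -2.47, adjusted p = 0.0908) or WT adult replicate 2 (log2 -1.98, adjusted p = 0.154). It held without the e13.5 libraries numbered 2 (log2 -2.57 ± 0.48, adjusted p = 0.00368) and without those numbered 1 (-1.66 ± 0.47, adjusted p = 0.0284), while the uncalled KO difference was -0.97 ± 0.48 without those numbered 2 and 0.53 ± 0.50 without those numbered 1. Whether the age difference itself differed between the genotypes was tested by the interaction, a log2 difference of 1.89 ± 0.85 (95% interval -0.01 to 3.8, adjusted p = 1, edgeR), which was not called.

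The Ucp3 to Ucp2 ratio per kilobase was 0.455 and 0.951 in KO adults and 1.25 and 1.60 in WT adults. With Ucp3 set to the floor of 3 counts in all e13.5 libraries, it was 9.07e-04 to 0.00148 there. The log2 difference of adult against e13.5 was then 9.78, and the exact permutation test gave p = 0.0286, the smallest it can give (adjusted p = 0.0857 over the 6 ratio tests). In adults both KO ratios lay below both WT ratios, at 0.465-fold, and over both ages the log2 difference of KO against WT was -0.48 (exact permutation within age, p = 0.278, adjusted p = 0.333).

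**Figure D4:**
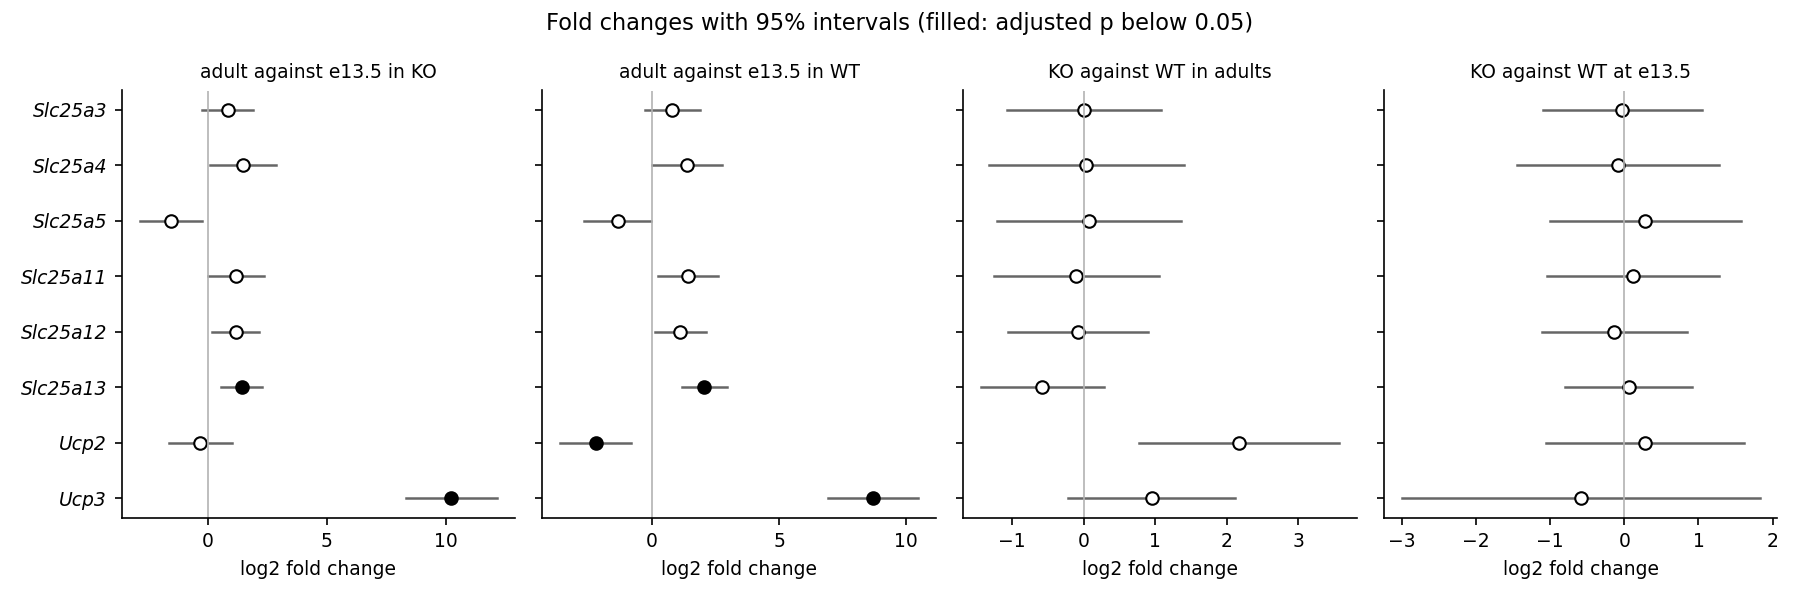
Log2 fold changes of the 8 carriers with 95% intervals from edgeR in 4 comparisons (adult against e13.5 in KO and in WT, KO against WT in adults and at e13.5), with filled points for an adjusted p under 0.05. Slc25a13 and Ucp3 are filled in both age comparisons, Ucp2 in the WT age comparison alone, and no point is filled in the genotype comparisons.

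Between KO and WT, 0 of the 8 carriers were called at either age by edgeR or by DESeq2. Of all genes tested, 0.0481% were called in adults, 0.0722% at e13.5 and 0.12% in the average over both ages, and 0% for the interaction. At an unadjusted p under 0.05 there was 1 member in adults (Ucp2), 0 at e13.5, 0 for the interaction and 1 in the average over both ages (Ucp2, log2 1.22 ± 0.43, adjusted p = 1, edgeR). The share of all genes tested under that unadjusted threshold was 2.27% in adults, 2.39% at e13.5, 1.59% for the interaction and 2.83% in the average. In adults the libraries of 3 members did not overlap, Slc25a13, Ucp2 and Ucp3, as was so for 27.9% of all genes, and at e13.5 those of 0 members, against 15.4% of all genes.

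Ucp2 had the widest genotype difference among the 8 in adults, at 4.51-fold (log2 2.17 ± 0.62, 95% interval 0.78 to 3.57, adjusted p = 1, edgeR). Both KO adult libraries, at 265 and 109 CPM, lay above both WT adult libraries, at 48.2 and 34.8 CPM, and the KO pair differed by 2.44-fold within itself. Without KO adult replicate 1 the log2 difference was 1.39 ± 0.67, and over all alternatives it ran from 1.39 to 2.67 with an adjusted p of 0.0705 to 1. At e13.5 the log2 difference was 0.28 ± 0.60 (adjusted p = 1), and the libraries overlapped. Macrophage and leukocyte markers had values in the same direction in adults: 10 of 10 had a positive log2 difference, 0 were called, none was at 0 in any library, and their sum was 397 and 251 CPM in KO adults, against 255 and 150 CPM in WT adults. Their median log2 difference was 0.49 in adults and also 0.49 at e13.5, where 8 of 10 were positive, 0 were called and the sums were 151 and 108 CPM in KO and 75.5 and 89.0 CPM in WT. Csf1r, the macrophage growth factor receptor, had 80.4 and 47.2 CPM in KO adults and 61.8 and 36.8 CPM in WT adults, and Lyz2, lysozyme, had 202 and 127.9 CPM in KO adults and 110.4 and 63.5 CPM in WT adults. Endothelial markers also had 10 of 10 positive values and sums of 2047 and 1148 CPM in KO adults, against 1243 and 905 CPM in WT adults. Fibroblast markers had 9 of 10 positive values. Epicardial markers ran the other way, with 1 of 8 positive, a median log2 difference of -0.88 and 0 called, and sums of 40.5 and 16.2 CPM in KO adults, against 38.8 and 50.7 CPM in WT adults. KO adult replicate 1, the library highest in Ucp2 among the adults, also had the lowest cardiomyocyte sum of the 4. Its macrophage, endothelial, fibroblast, smooth muscle and erythroid sums were all the highest of the 4. Single cardiomyocyte markers did not all follow the sum. Myh6, Myh7, Tnnt2, Ttn and Ryr2 were lowest in that library, whereas Actc1, Myl2 and Myl3 were highest in it and Tnni3 and Myl7 lay between. The part of these cells in the Ucp2 difference was not tested. Dnajb13, which shares 305 bases with Ucp2 on the opposite strand, had at most 11 counts a library. Within 200 kb of Ucp2 and Ucp3, 10 other genes were tested, of which 5 had a positive log2 difference in adults, from -1.51 to 2.28, and 0 were called.

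Ucp3 had 74.1 and 63.6 CPM in KO adults, against 37.1 and 34.1 CPM in WT adults, without overlap, and a log2 difference of 0.95 ± 0.52 (95% interval -0.22 to 2.12, adjusted p = 1, edgeR). Slc25a13 had 112 and 123 CPM in KO adults, against 164 and 187 CPM in WT adults, also without overlap, and a log2 difference of -0.58 ± 0.38 (interval -1.43 to 0.28, adjusted p = 1, edgeR). The other 5 members had log2 differences between -0.10 and 0.08 in adults, with overlapping libraries and standard errors of 0.44 to 0.61. For Slc25a4 the 95% interval was -1.32 to 1.40 in adults and -1.44 to 1.27 at e13.5, about as wide to each side as its difference between the ages. At e13.5 the log2 differences of KO against WT were -0.02 for Slc25a3, -0.09 for Slc25a4, 0.28 for Slc25a5, 0.11 for Slc25a11, -0.13 for Slc25a12 and 0.06 for Slc25a13.

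Among the other mitochondrial carriers of the family, 36 of 43 in the table were tested. In KO adults 12 were higher and 7 lower than at e13.5 (52.8% called, beside 41.4% of all genes), and in WT adults 12 were higher and 6 lower (50% called, beside 38.9% of all genes). The counts of the smaller lists that follow stand beside the same shares of all genes, 20.5% higher and 20.9% lower in KO and 17.8% higher and 21.1% lower in WT. The 36 carriers had a median log2 difference of 0.62 in KO and 0.45 in WT, beside -0.15 and -0.26 over all genes. Of the 11 other nucleotide and cofactor carriers tested, 3 were higher and 2 lower in adults of each genotype. Slc25a42, the mitochondrial coenzyme A carrier, averaged 91.0 ± 2.04 CPM in KO adults and 74.4 ± 5.83 CPM in WT adults, against 8.34 ± 1.80 CPM at KO e13.5 and 7.93 ± 1.11 CPM at WT e13.5 (SD, n = 2 each; adjusted p = 4.47e-04 in KO and 6.05e-04 in WT, edgeR). Slc25a23, a calcium-regulated ATP-Mg/phosphate carrier, averaged 56.6 ± 4.20 CPM in KO adults and 47.4 ± 2.41 CPM in WT adults, and 5.62 ± 0.00481 CPM at KO e13.5 and 7.26 ± 1.08 CPM at WT e13.5. Slc25a33, a pyrimidine nucleotide carrier, rose in adults by log2 6.07 ± 1.10 in KO and 5.73 ± 1.04 in WT. It averaged 23.1 ± 2.14 CPM in KO adults and 37.1 ± 8.90 CPM in WT adults (SD). At e13.5 it had 0.750 and 0 CPM in KO and 0.553 and 0.826 CPM in WT. The size of its rise thus rests on low e13.5 values.

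Of the 22 other substrate, amino acid and metal carriers tested, 9 were higher and 4 lower in KO adults, and 9 higher and 3 lower in WT adults. Slc25a34, an orphan carrier, averaged 210.6 ± 59.5 CPM in KO adults and 225 ± 6.17 CPM in WT adults, against 0.341 ± 0.314 CPM at KO e13.5 and 0.368 ± 0.131 CPM at WT e13.5. Slc25a28 (mitoferrin 2, an iron importer) rose in adults by log2 4.69 ± 0.56 in KO and 4.06 ± 0.54 in WT. Slc25a1, the citrate carrier, which exports citrate for fatty acid synthesis, fell to 5.38 ± 1.24 CPM in KO adults and 2.45 ± 0.646 CPM in WT adults, against 24.8 ± 7.30 CPM at KO e13.5 and 21.4 ± 4.13 CPM at WT e13.5. Of 3 other uncoupling-like carriers tested, Slc25a14 was lower in adults of both genotypes (log2 -2.91 ± 0.60 in KO and -2.32 ± 0.58 in WT, adjusted p = 0.00464 and 0.0124, edgeR), and Ucp1 was not tested, with at most 0.413 CPM in a library. Between KO and WT, 0 of the 36 were called at either age (edgeR).

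**Figure D5:**
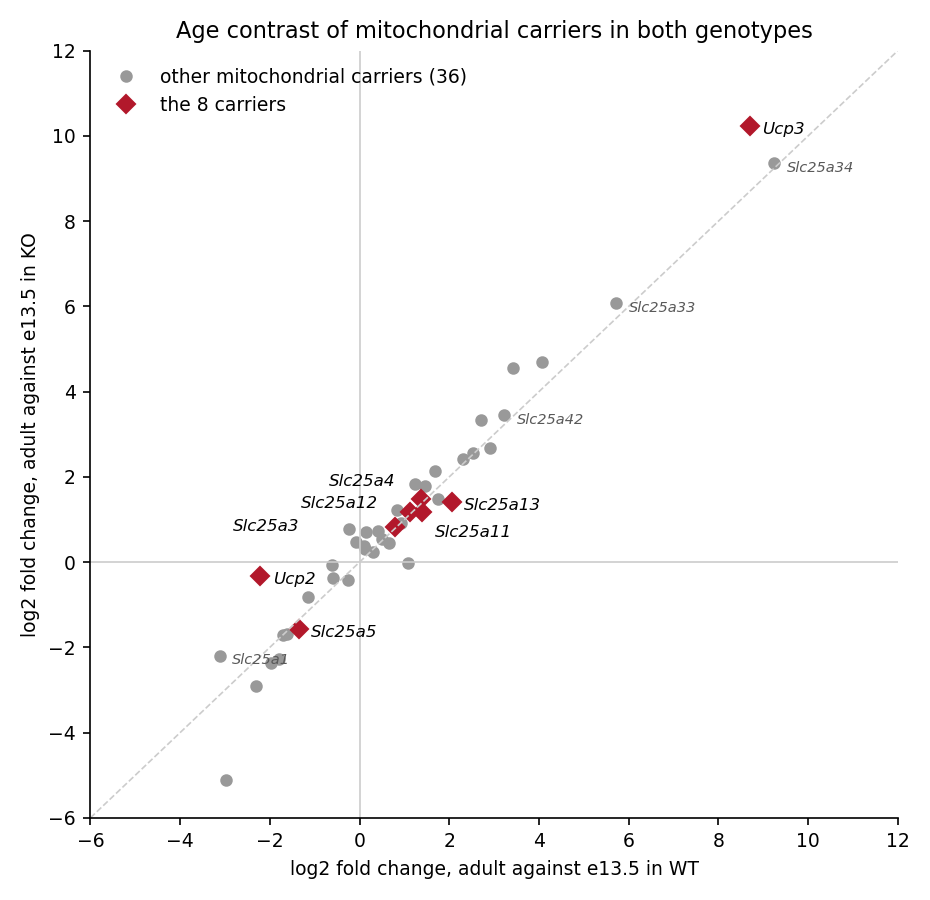
Log2 fold change of adult against e13.5 in KO (vertical axis) and in WT (horizontal axis) for the 8 carriers (diamonds) and 36 other mitochondrial carriers (circles), with a dashed line where both are equal. Slc25a5 and Ucp2 lie below 0 on both axes, Slc25a3, Slc25a4, Slc25a11, Slc25a12 and Slc25a13 lie between 0.79 and 2.05, and Ucp3 stands with Slc25a34 at the upper right.

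The enzymes that work with these carriers moved in part. Of the 4 malate-aspartate shuttle enzymes, Got1, the cytosolic aspartate aminotransferase, rose to 756 ± 12.8 CPM in KO adults and 924 ± 48.4 CPM in WT adults, against 205 ± 125 CPM at KO e13.5 and 177 ± 74.8 CPM at WT e13.5 (adjusted p = 0.0230 and 0.00971, edgeR), and the other 3 did not pass. Of the 3 genes of the parallel glycerol phosphate shuttle, Gpd1 and Gpd1l rose in adults of both genotypes, Gpd1 by log2 6.54 ± 0.61 in KO and 6.14 ± 0.59 in WT. The third had a negative log2 difference, -0.76 in KO and -0.65 in WT, and was not called. Of 10 outer membrane channels, creatine kinases and adenylate kinases tested, 3 rose and 2 fell in adults of each genotype. Ckmt2, the muscle mitochondrial creatine kinase, which receives ATP leaving through the ADP/ATP carrier, had 2801 ± 1.38 CPM in KO adults and 2653 ± 49.5 CPM in WT adults, against 13 ± 14.8 CPM at KO e13.5 and 14.8 ± 10.3 CPM at WT e13.5. Ckm, the cytosolic muscle form, also rose, by log2 3.85 ± 0.67 in KO and 3.82 ± 0.67 in WT, and Ckb, the brain form, fell by 1.91 ± 0.50 in KO and by 2.15 ± 0.51 in WT on the log2 scale.

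ATP synthase makes the ATP that the ADP/ATP carriers export. Of its 16 genes listed, 0 were called higher and 2 lower in adults of each genotype by edgeR: Atp5g2, which encodes a copy of the c subunit, by log2 -2.96 ± 0.40 in KO and -4.16 ± 0.42 in WT, and Atpif1, the inhibitory factor, by log2 -2.05 ± 0.59 in KO and -2.48 ± 0.60 in WT. Most of the 16 leaned the other way without being called. In KO adults 14 had a positive log2 difference from e13.5, with a median of 0.67 beside -0.15 over all genes tested. In WT adults 11 were positive, with a median of 0.35 beside -0.26. Between KO and WT adults 16 of 16 had a positive log2 difference, with a median of 0.26 beside 0.01 over all genes tested, and 0 were called (edgeR). At e13.5 the direction was the other for most: 4 of 16 were positive, with a median of -0.15 beside -0.07 over all genes tested, and 0 were called. In a list of 12 nuclear regulators of mitochondrial genes, which also holds Ppif (cyclophilin D), 6 were higher and 1 lower in KO adults, and 5 higher and 1 lower in WT adults. Esrra, the estrogen-related receptor alpha, averaged 215 ± 85.6 CPM in KO adults and 184 ± 31.2 CPM in WT adults, against 6.13 ± 1.67 CPM at KO e13.5 and 7.36 ± 1.59 CPM at WT e13.5. Ppara, a fatty acid receptor of heart and liver, averaged 22.5 ± 8.79 CPM in KO adults and 51.3 ± 3.56 CPM in WT adults, against 1.28 ± 0.578 CPM at KO e13.5 and 2.21 ± 0.718 CPM at WT e13.5. Ppard, its relative, rose in adults by log2 5.52 ± 0.58 in KO and 5.18 ± 0.56 in WT. In the genotype comparisons 0 genes of these lists were called at either age (edgeR).

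Genes with a mean of at least 5 CPM, 10757 in all, were ranked by likeness of pattern over the 8 libraries. Members, symbols of Gm with a number or ending in Rik, and genes with only an identifier were left out of the ranking. Those most like Slc25a4 were Tpm1, Lyrm9, Tcp11l2 and Lrrc39, with a root mean square difference of centred log2 CPM of 0.103 to 0.129. Those most like Slc25a5 were Ccdc58, Vps29, Pctp and Psma2, at 0.0948 to 0.122. Among the members, Slc25a4 was nearest to Slc25a11 (0.157) and far from Slc25a5 (1.45), and Slc25a3 was nearest to Slc25a12 (0.205). The coding sequences of Slc25a4 and Slc25a5 are 77.4% identical, and those of Slc25a12 and Slc25a13, whose patterns differed by 0.452, are 70.75% identical.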

How the data were processed

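Gene-level expected counts (estimated counts) were deposited by the authors for 8 libraries in 4 groups of 2. Per the labels' protocols, 200 ng of total RNA was amplified with Smart-seq2, and per the submitters' processing notes RSEM and the mm10 genome were used. Versions, aligner and use of strand were not given in the sources used here. The values were whole numbers with unequal totals, and were used as unscaled counts, although the table's name calls it a normalised input. Symbols and positions came from GENCODE vM21 (GRCm38), and 193 of 51826 identifiers had none.

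Counts were fitted in R 4.3.3 with edgeR 4.0.16 (filterByExpr, TMM, quasi-likelihood test, 4 group means, Benjamini-Hochberg over 16623 genes, threshold 0.05), a procedure tested on simulated counts. Standard errors are the log2 difference over the root of F. Ratios used counts per kilobase of the principal transcript, with a floor of 3 counts, and exact permutation tests. Alternatives were other filters and scalings, DESeq2 1.42.0, the replicate block, and libraries left out. The 95% intervals of log2 differences come from the edgeR fit and include the spread between libraries. The interval of the Ucp3 count ratio and the floors cover counting error only, and amplified reads are not independent molecules. Copies were sought with BLAST 2.17.0 (at least 95% identity over 50% of the length and 200 bases). Promoters came from RefSeq.

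The members and gene lists were chosen with earlier results of these data known. The genes named from a list are up to 3 with the smallest p among those called in adult against e13.5 in WT. For Slc25a4 and Slc25a5 the 4 genes nearest in pattern among those ranked are named. Markers and genes with a special position were named beside them.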

Additional observations from a re-analysis of the deposited data

How the results depend on the processing

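Members were fitted under at most 21 alternative settings a comparison. Of 991 member values, 933 kept their side of the threshold, 109 of them with a change of sign where neither value was called. Another 48 passed the threshold only under the alternative, 10 lost it, and 0 called values reversed. The ratio tests could not pass the threshold after adjustment (smallest possible adjusted p = 0.0556, exact permutation), so their side of it says nothing of stability. The log2 difference of the Slc25a4 to Slc25a5 ratio between the ages ran from 2.81 to 2.97 over its alternatives. In the genotype comparisons and the interaction, 0 members were called under any setting run, so their values kept their side throughout. The 48 values that passed and the 10 that lost the threshold were all in the age comparisons. The pooled 933 of 991 therefore overstates how stable the age calls were. For adult against e13.5, the count of members called was 2 in KO and 3 in WT. With a replicate block it was 6 in KO (all but Slc25a3 and Ucp2) and 7 in WT (all but Slc25a3), and with a replicate block at e13.5 alone it was 7 in KO (all but Ucp2) and 8 in WT. The labels share replicate numbers without saying that they pair samples. With 2 numbers the pairing rests on the data alone: the replicate differences of KO and WT correlated across genes at 0.307 in adults and 0.552 at e13.5. The block changed no other count of members. With the 4 libraries of the comparison alone the KO count was 1. The next 2 settings were chosen after seeing the data: without both e13.5 libraries numbered 2 the counts were 4 in KO and 6 in WT, and without both numbered 1 they were 6 and 7. There the lone e13.5 library of a group is assumed to vary like the others. Leaving out 1 library gave 1 to 3 in KO and 2 to 6 in WT. The KO count of 1 came without any 1 of the 4 adult libraries, and WT counts of 6 and 5 came without KO e13.5 replicate 1 and KO e13.5 replicate 2. Leaving out libraries also changes the pooled spread. Upper quartile scaling shifted the median log2 difference of all genes to -0.35 in KO and -0.39 in WT, against -0.15 and -0.26, and changed no called direction. With 2 libraries a group, log2 differences under about the interval widths given could not be resolved.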
